A study of Mus musculus with 16 samples.

Results

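The genes described here are 10 neuronal RNA-binding and splicing factors of the mouse, Elavl2, Elavl3, Elavl4, Rbfox1, Rbfox2, Rbfox3, Nova1, Nova2, Celf4 and Srrm4. They were picked by name, with earlier results of these data known, and all 10 were found among the 51912 Ensembl genes of the deposited count table by their GRCm38 symbols. RNA was sequenced from nuclei of the colon muscle layer, with its attached myenteric plexus, of C57BL/6 mice kept specific pathogen-free (SPF). Every mouse had received the vector AAV9-CaMKII-EGFPKASH, which puts EGFP on the nuclear envelope, by vein 5 weeks earlier, and was given either 3-methylcholanthrene, an agonist of the aryl hydrocarbon receptor (AhR), or corn oil by intraperitoneal injection 14 hours before the nuclei were taken. Intact nuclei were gated on DAPI and sorted into an EGFP+ (neuronal) and an EGFP- (non-neuronal) population. The labels thus give 4 groups of 4 libraries, 16 in all: neuronal and non-neuronal nuclei after corn oil, and the same populations after agonist. Neither the dose nor the age of the mice is labelled, nor is it stated if each library is 1 mouse or a pool. Which neuronal and non-neuronal libraries came from the same mice is not labelled either. A p-value here measures no more than the spread between libraries, which may be technical. The vector and its CaMKII promoter decide which neurons were tagged, so neurons that were not tagged would have been sorted as EGFP-. In such pooled nuclei, fewer nuclei of a type and less RNA per nucleus cannot be told apart.

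RNA-binding proteins of this kind act after transcription. Members of the Elavl (Hu), Rbfox and Nova families recognise short sequence elements in pre-mRNA and mRNA and change which exons are spliced in, how long an mRNA lasts and how it is translated. The neuronal Hu proteins and NeuN, the product of Rbfox3, are also the antigens by which enteric neurons are usually counted in tissue. Srrm4 promotes the inclusion of very short neuronal exons, and Celf4 binds many mRNAs with synaptic products.

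The promoters of 4 genes are shown first, because the treatment acts through a transcription factor whose core motif, GCGTG, can be looked for in them, and because these 4 cover genes with and without that motif and with and without a difference between the populations. Each runs from 250 bases before to 50 bases after the RefSeq start, 5′ to 3′ on the strand of the gene, in GRCm38.p6. Capitals mark GCGTG as it reads on either strand, so that CACGC is the motif on the opposite strand. The Rbfox3 entry is the 1 in the table for that gene, and its start lies inside the annotated gene and not at the gene's outer end. Srrm4 lies at chr5:116591768-116592067, Elavl3 at chr9:22051974-22052273, Rbfox3 at chr11:118760992-118761291 and Nova1 at chr12:46818718-46819017, all on the minus strand.
Srrm4: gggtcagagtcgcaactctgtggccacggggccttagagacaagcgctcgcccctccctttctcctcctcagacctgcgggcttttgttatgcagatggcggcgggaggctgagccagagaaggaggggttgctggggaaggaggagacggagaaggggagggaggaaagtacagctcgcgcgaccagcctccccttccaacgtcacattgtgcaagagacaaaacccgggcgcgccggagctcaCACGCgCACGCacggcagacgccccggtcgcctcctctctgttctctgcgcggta
Elavl3: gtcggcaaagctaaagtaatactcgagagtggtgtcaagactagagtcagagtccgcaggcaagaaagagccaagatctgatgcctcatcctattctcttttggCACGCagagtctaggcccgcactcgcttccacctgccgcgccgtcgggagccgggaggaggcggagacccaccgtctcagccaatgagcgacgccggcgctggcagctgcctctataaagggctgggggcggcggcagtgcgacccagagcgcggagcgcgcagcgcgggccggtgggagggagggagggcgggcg
Rbfox3: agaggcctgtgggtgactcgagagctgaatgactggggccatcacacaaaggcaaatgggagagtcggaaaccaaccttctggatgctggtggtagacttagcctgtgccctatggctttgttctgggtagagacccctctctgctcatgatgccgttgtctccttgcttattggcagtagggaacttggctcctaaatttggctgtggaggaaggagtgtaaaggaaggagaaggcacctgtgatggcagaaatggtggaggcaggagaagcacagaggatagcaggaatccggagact
Nova1: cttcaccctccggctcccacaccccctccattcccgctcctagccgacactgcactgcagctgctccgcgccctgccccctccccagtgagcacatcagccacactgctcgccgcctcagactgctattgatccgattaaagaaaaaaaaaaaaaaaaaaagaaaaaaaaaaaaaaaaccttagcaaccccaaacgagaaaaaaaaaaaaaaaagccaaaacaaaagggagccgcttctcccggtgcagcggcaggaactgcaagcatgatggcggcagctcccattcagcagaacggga
The Srrm4 promoter held 2 copies of GCGTG next to its start and the Elavl3 promoter held 1, while those of Rbfox3 and Nova1 held none. RefSeq promoters were found for 8 of the 10 genes, as 17 entries in all, and 3 of these 8 genes (Elavl2, Elavl3 and Srrm4) held the motif in at least 1 entry, against 35.2% of the 27025 genes with a promoter in the table. The 2 parts of the binding site of REST, a repressor of neuronal genes, were searched in the same way. Some of the 17 entries overlap, as those of Elavl2 do, so shares of genes are given first. CAGCACC was in none of the 8 genes and in 8.14% of all 27025 genes (7.14% of all 32851 promoters). GGACAG was in 1 of the 8 genes, in 1 entry of Elavl2, and in 24.7% of all genes (22.2% of all promoters). Both parts joined over 2 free bases were in none of the 8 genes and in 0.0407% of all genes (0.0365% of all promoters). A match of letters is a description only, and no match says only that the letters are not in this window. The promoters of Srrm4 (64.3% G and C) and Elavl3 (65.3%) were above the upper quartile of all promoters, 61.7%, while the Rbfox3 entry (53.0%) and that of Nova1 (51.7%) were close to the median, 52.7%.

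Expected counts per library summed to between 2663818 and 4902344. Pan-neuronal and enteric marker genes (22 genes) summed to between 6194 and 7288 CPM (counts scaled to a common library size) in the 8 neuronal libraries and to between 116 and 1007 CPM in the 8 non-neuronal ones. All 22 had counts in both non-neuronal groups. The neuronal libraries in turn held smooth muscle markers (12 genes), between 295 and 1574 CPM against 2263 and more in the non-neuronal libraries, and markers of interstitial cells of Cajal (6 genes) at between 372 and 654 CPM, with the non-neuronal libraries at between 134 and 630. Mitochondrially encoded RNA took between 1.77% and 6.11% of counts in neuronal libraries but 42.8% and 33.3% in the first and the second non-neuronal agonist library and between 10.3% and 26.3% in the other non-neuronal ones. The first neuronal agonist library stood apart, with counts for 17293 genes against 20313 or more in the other 3 of its group. Where leaving these libraries out changed the call of a factor between the populations, both values are given.

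In corn oil mice, 7 of the 10 factors were higher in neuronal than in non-neuronal nuclei and none was lower, at an adjusted p under 0.05 in edgeR's quasi-likelihood test, where 11.8% of all 15285 genes tested were called higher. These were Elavl2, Elavl3, Elavl4, Rbfox1, Rbfox3, Celf4 and Srrm4, and for the same 7 genes the 4 neuronal libraries lay above all 4 non-neuronal ones, as they did for 15.1% of all genes tested. Rbfox2, Nova1 and Nova2 did not pass. After agonist, in 8 other libraries, 7 of 10 were again called higher, against 6.67% of all 14065 genes tested, with Rbfox2 in and Elavl2 out. The neuronal libraries lay above all non-neuronal ones for the same 7 that were called after agonist, as for 11.7% of all genes tested. The median log2 fold change of the 10 factors was 3.02 in corn oil mice and 3.92 after agonist, beside -0.11 and -0.15 over all genes tested. With Rbfox3, which had no count in the non-neuronal agonist libraries, at its lower bound, the second median stayed at 3.92. Summed over the 10 factors on a common scale, non-neuronal nuclei had 17% of the neuronal level in corn oil mice, while the 22 neuron markers had 9.82%. After agonist these shares were 11.1% and 7.86%. Rbfox2 and Nova1 made up 89.4 and 26.9 of the 220.4 CPM in corn oil non-neuronal nuclei, and over the other 8 factors, a sum added after the values were seen, the shares were 9.17% in corn oil mice and 6.21% after agonist. The part of untagged neurons in the levels of EGFP- nuclei was not tested. Levels below are CPM scaled by the trimmed mean of M-values (TMM) over all 16 libraries and listed for libraries 1 to 4, while fold changes come from fits of the 8 libraries compared, each with its own scaling.

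**Figure D1:**
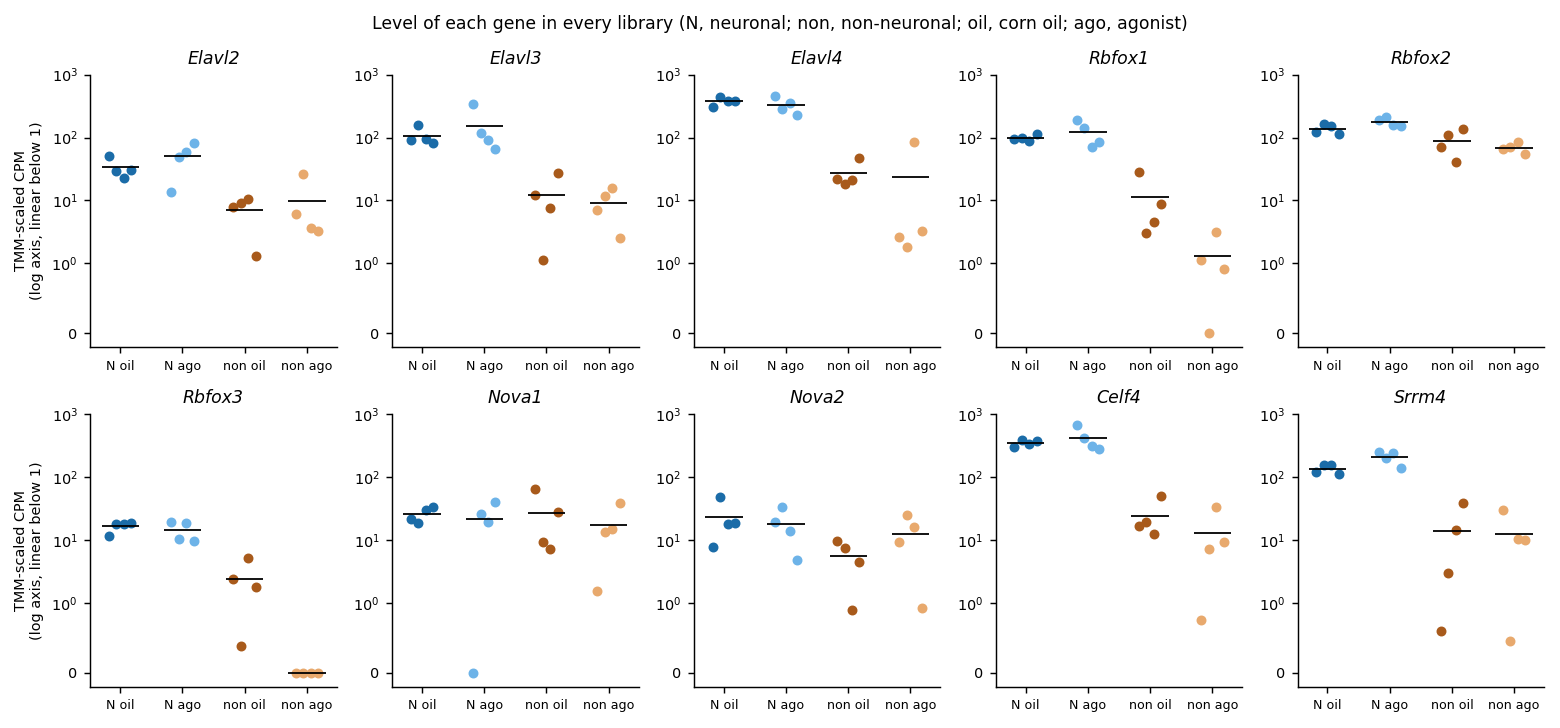
Level of each of the 10 factors in all 16 libraries, in TMM-scaled CPM on an axis that is logarithmic above 1 and linear below. Points are libraries and bars are group means (4 libraries each). The neuronal points stand above the non-neuronal ones under both treatments for Elavl3, Elavl4, Rbfox1, Rbfox3, Celf4 and Srrm4, while those of Nova1 and Nova2 overlap.

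Among the Hu genes, Elavl4 (ENSMUSG00000028546, chromosome 4, 110203722 to 110351909, minus strand), which encodes the neuronal protein HuD, was at 303, 438, 386 and 376 CPM in the corn oil neuronal libraries. The corn oil non-neuronal libraries had 21.9, 18.4, 21.2 and 47.9 CPM of it. The groups did not overlap, and the fourth non-neuronal library was the highest of its group. Elavl4 was higher in neuronal nuclei by a log2 fold change of 3.86 (SE 0.34, n = 4 and 4, edgeR adjusted p = 8.19e-06). After agonist, neuronal libraries had 452, 288, 351 and 227 CPM of Elavl4. Non-neuronal libraries had 2.65, 1.80, 85.8 and 3.24 CPM. All neuronal libraries were again above all non-neuronal ones, but the third non-neuronal library held most of that group's counts, 328 of 353. That library also had the highest sum of the 22 neuron markers among the non-neuronal agonist libraries, 682 CPM on the TMM scale, against 215, 597 and 397 in the other 3, and its part in the result can be read from the fit without it. The log2 fold change of Elavl4 after agonist was 3.83 (SE 1.06, edgeR adjusted p = 0.0287) and 6.92 without the third non-neuronal library (adjusted p = 3.61e-05). It lost its call, at an adjusted p of 0.0679, 0.0642 or 0.0693, when the first, the third or the fourth neuronal agonist library was left out, and at 0.0674 without the 2 libraries with over 30% mitochondrial counts. Over all alternatives the adjusted p ran from 3.61e-05 to 0.0693.

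Elavl3 (ENSMUSG00000003410, chromosome 9, 22015005 to 22052023, minus strand), which encodes HuC, was at 90.8, 158, 94.0 and 80.5 CPM in corn oil neuronal libraries. It was at 12.4, 1.13, 7.48 and 27.2 CPM in corn oil non-neuronal ones. The lowest neuronal library was above the highest non-neuronal one. Elavl3 was higher by a log2 fold change of 3.20 (SE 0.64, edgeR adjusted p = 0.00236), and 4.01 without the fourth non-neuronal library. After agonist, Elavl3 stood at 342, 116, 90.6 and 66.6 CPM in neuronal libraries. The first of these libraries, which had the fewest genes with a count, was far above the others. Non-neuronal libraries had 7.18, 11.7, 15.7 and 2.55 CPM of Elavl3. The groups again lay apart, with a log2 fold change of 4.01 (SE 0.75, edgeR adjusted p = 0.00255), or 3.33 without the first neuronal library (adjusted p = 0.0144, in a range of 8.57e-07 to 0.0217 over all alternatives).

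Elavl2 (ENSMUSG00000008489, chromosome 4, 91250763 to 91400785, minus strand), which encodes HuB, was at 51.3, 29.2, 22.5 and 30.9 CPM in the corn oil neuronal libraries. Its corn oil non-neuronal libraries were at 7.99, 9.01, 10.5 and 1.29 CPM. No library of one group reached the range of the other. The log2 fold change was 2.31 (SE 0.62, edgeR adjusted p = 0.0144). This call was lost without the first neuronal library (adjusted p = 0.0599) and with all 4 groups in 1 fit (0.0669), in a range of 0.000901 to 0.0669 over all alternatives. After agonist, Elavl2 was at 13.6, 48.6, 58.4 and 82.1 CPM in neuronal libraries. Non-neuronal libraries had 6.05, 26.2, 3.66 and 3.24 CPM. Here the groups overlapped, because the second non-neuronal library was above the first neuronal one. The log2 fold change of 2.35 (SE 0.95) missed the threshold (edgeR adjusted p = 0.125). It was 3.51 without the second non-neuronal library (edgeR adjusted p = 0.0276) and 3.95 without both libraries over 30% mitochondrial (edgeR adjusted p = 0.03495), in a range of 0.0276 to 0.287 over all alternatives, 5 of which passed.

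Of the Rbfox genes, Rbfox1 (ENSMUSG00000008658, chromosome 16, 5885355 to 7411526, plus strand), a splicing regulator of neurons and muscle, was at 96.3, 97.2, 88.9 and 114 CPM in corn oil neuronal libraries, a narrow range. Corn oil non-neuronal libraries had 28.7, 3.00, 4.49 and 8.80 CPM of Rbfox1. All were below the neuronal libraries, with the first well above the other 3. Rbfox1 was higher in neuronal nuclei by a log2 fold change of 3.22 (SE 0.59, edgeR adjusted p = 0.00136), or 4.26 without that first non-neuronal library. After agonist, neuronal libraries were at 191, 139.7, 69.8 and 84.1 CPM. Non-neuronal libraries were at 1.13, 0, 3.14 and 0.926 CPM, which rest on 3, 0, 12 and 4 counts. The separation was complete, at a log2 fold change of 6.44 (SE 0.93, edgeR adjusted p = 0.000447), and 7.28 without the third non-neuronal library.

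Rbfox2 (ENSMUSG00000033565, chromosome 15, 77078990 to 77307004, minus strand) is the member of the family that many tissues outside the nervous system also use. Corn oil neuronal libraries had 121, 166, 151 and 112 CPM of it. Corn oil non-neuronal libraries had 71.3, 108, 41.0 and 137 CPM. The fourth non-neuronal library lay within the neuronal range, and the log2 fold change of 0.70 (SE 0.35) missed the threshold (edgeR adjusted p = 0.174). Without that library it was 1.01 and passed (adjusted p = 0.0388, in a range of 0.0388 to 0.301 over all alternatives). After agonist, neuronal libraries stood at 191, 209, 160.4 and 151 CPM of Rbfox2. Non-neuronal libraries stood at 66.9, 70.4, 84.7 and 55.3 CPM. These groups did not overlap. Rbfox2 was then called higher, at a log2 fold change of 1.34 (SE 0.42, edgeR adjusted p = 0.0479), just under the threshold. The call was lost when any 1 of the 8 libraries was left out (adjusted p between 0.0575 and 0.153) or both libraries over 30% mitochondrial were (0.0906), and held in 5 of 16 alternatives, over which the adjusted p ran from 0.0103 to 0.153.

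Rbfox3 (ENSMUSG00000025576, chromosome 11, 118489762 to 118911597, minus strand), which encodes the antigen NeuN, was at 11.5, 17.96, 17.9 and 18.3 CPM in corn oil neuronal libraries, the first being the lowest. Corn oil non-neuronal libraries had 2.37, 0.375, 5.08 and 1.81 CPM of Rbfox3. They were all below the neuronal ones and rest on 8, 1, 17 and 7 counts. Rbfox3 was higher in neuronal nuclei by a log2 fold change of 2.84 (SE 0.77, edgeR adjusted p = 0.0146), or 3.51 without the third non-neuronal library, and missed the threshold with all 4 groups in 1 fit (0.0741, in a range of 0.000392 to 0.0741 over all alternatives). After agonist, neuronal libraries had 19.2, 10.3, 18.7 and 9.44 CPM, and all 4 non-neuronal libraries had no count. The neuronal level of Rbfox3 was at least 62.1-fold higher, taking 3 counts over the group as the floor, which covers counting error only. It was called by edgeR with an adjusted p of 0.00625.

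The Nova genes did not separate the populations. Nova1 (ENSMUSG00000021047, chromosome 12, 46694517 to 46818929, minus strand), a splicing regulator of neurons first known as an autoimmune antigen, was at 21.5, 18.2, 29.97 and 33.7 CPM in corn oil neuronal libraries. It was at 63.6, 9.38, 7.18 and 27.4 CPM in corn oil non-neuronal ones. The highest and the lowest of these 8 libraries were both non-neuronal. Nova1 had a log2 fold change of 0.032 (SE 0.63, edgeR adjusted p = 0.980), and it was 0.90 without the first non-neuronal library. After agonist, Nova1 had 0, 25.6, 19.2 and 39.4 CPM in neuronal libraries. Non-neuronal libraries had 1.51, 13.1, 14.9 and 38.9 CPM of it. The first neuronal agonist library, the one that stood apart, had no Nova1 count. The groups overlapped over nearly their whole range, at a log2 fold change of 0.30 (SE 1.26, edgeR adjusted p = 0.926), or 0.74 without the first neuronal library, and the sign was negative without the fourth neuronal or the first non-neuronal library and without both libraries over 30% mitochondrial.

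Nova2 (ENSMUSG00000030411, chromosome 7, 18925888 to 18965319, plus strand), the close relative of Nova1, was at 7.59, 47.2, 17.9 and 18.6 CPM in corn oil neuronal libraries. Corn oil non-neuronal libraries had 9.47, 7.51, 0.897 and 4.40 CPM. A single non-neuronal library was above the lowest neuronal one. Nova2 had a log2 fold change of 2.11 (SE 0.77) and an edgeR adjusted p of 0.0616. DESeq2 gave an adjusted p of 0.0209, and the fit without the first neuronal library gave 0.0474, in a range of 0.0209 to 0.252 over all alternatives, 3 of which passed. After agonist, Nova2 stood at 19.2, 33.3, 14.0 and 4.72 CPM in neuronal libraries. It stood at 9.07, 24.4, 15.9 and 0.926 CPM in non-neuronal ones. The groups overlapped, with a log2 fold change of 0.48 (SE 1.06, edgeR adjusted p = 0.840). Nova2 is also the least certain of the 10 in its counts: of its distinct exonic 75-base sequences, the length of the reads, 30.3% also occur in Gm26821, a long noncoding RNA gene on the opposite strand that overlaps its exons by up to 2046 bases. The strand setting of the counting is not given in the sources used here, so reads of the 2 genes cannot be told apart in that stretch. The share was 2.61% for Elavl3 (with Gm49318), 2.72% for Nova1 (with Gm33869) and 0 for the other 7 factors, although the antisense gene Srrm4os overlaps exons of Srrm4 by 68 bases.

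Celf4 (ENSMUSG00000024268, chromosome 18, 25477632 to 25754157, minus strand), an mRNA-binding protein of excitable cells, was at 300.3, 384, 337 and 372 CPM in corn oil neuronal libraries. Corn oil non-neuronal libraries had 16.3, 19.1, 12.3 and 49.5 CPM of it. The fourth non-neuronal library was again the highest of its group, as for Elavl3 and Elavl4, and it had the largest neuron marker sum of that group, 1010 CPM on the TMM scale against between 304 and 454 in the other 3. Celf4 was higher in neuronal nuclei by a log2 fold change of 3.92 (SE 0.41, edgeR adjusted p = 2.94e-05), and by 4.57 without that library. After agonist, Celf4 was at 669, 419.5, 313 and 275 CPM in neuronal libraries. It was at 0.756, 7.22, 33.5 and 9.26 CPM in non-neuronal ones. The highest non-neuronal library was far below the lowest neuronal one. The log2 fold change was 5.03 (SE 0.79, edgeR adjusted p = 0.000822), and 6.12 without the third non-neuronal library.

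Srrm4 (ENSMUSG00000063919, chromosome 5, 116439275 to 116591817, minus strand), also called nSR100, the microexon splicing factor whose promoter is printed above, was at 121, 153, 152 and 110.3 CPM in corn oil neuronal libraries. It was at 0.592, 3.00, 14.3 and 38.1 CPM in corn oil non-neuronal ones. The non-neuronal libraries spread over a wide range but all stayed below the neuronal ones. Srrm4 was higher by a log2 fold change of 3.33 (SE 0.79, edgeR adjusted p = 0.00677), or 4.59 without the fourth non-neuronal library. It missed the threshold when no filter on low counts was used (adjusted p = 0.0577, in a range of 6.21e-05 to 0.0577 over all alternatives). After agonist, neuronal libraries had 244, 200.1, 243 and 138 CPM of Srrm4. Non-neuronal libraries had 29.5, 0.451, 10.5 and 9.95 CPM. The groups lay apart, with a log2 fold change of 4.00 (SE 0.80, edgeR adjusted p = 0.00402), or 4.83 without the first non-neuronal library.

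**Figure D2:**
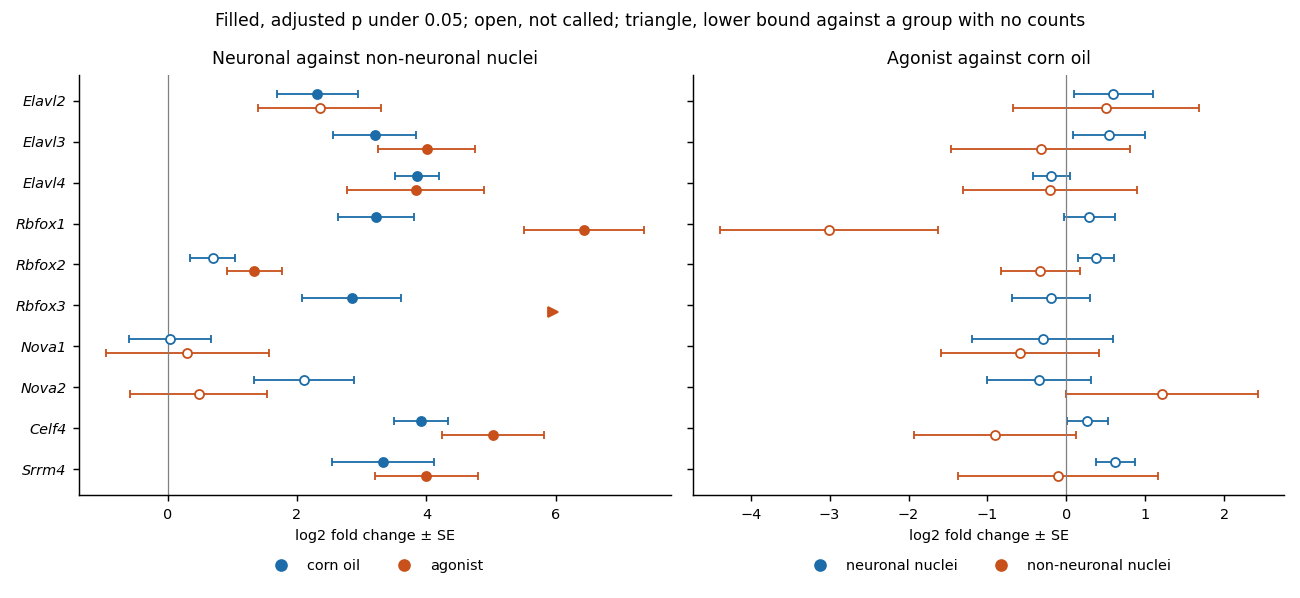
Log2 fold change with its SE for each factor, from edgeR fits of 8 libraries each. On the left, neuronal against non-neuronal nuclei in corn oil mice and after agonist; on the right, agonist against corn oil in each population. Filled points passed an adjusted p of 0.05, and the triangle of Rbfox3 is the lower bound of 62.1-fold against a group with no counts; Rbfox3 was not tested in non-neuronal nuclei. Filled points are on the left only.

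Divided by the summed length of annotated exons, levels could be compared between genes. In corn oil neuronal nuclei Elavl4 led with 69.7 ± 10.3 CPM per kb (SD, n = 4), followed by Celf4 with 40.6 ± 4.41 and Rbfox1 with 22.5 ± 2.41, and the ranges of Elavl4 and Celf4, and of Celf4 and Rbfox1, did not overlap over the 4 libraries. Rbfox2 (16.9 ± 3.10), Srrm4 (15.4 ± 2.50) and Elavl3 (15.4 ± 5.13) formed a middle group, in which neighbours overlapped, as did Rbfox1 and Rbfox2. Elavl2 (4.03 ± 1.50), Nova1 (2.96 ± 0.826), Rbfox3 (2.82 ± 0.562) and Nova2 (2.73 ± 2.03) were lowest, below the whole range of Elavl3, and overlapped one another. Thus the NeuN gene was among the least abundant of the 10 transcripts per length in these nuclei, and the HuD gene the most abundant. In corn oil non-neuronal nuclei the order was another one, with Rbfox2 first (10.98 ± 5.17 CPM per kb), then Elavl4 (5.08 ± 2.56) and Nova1 (3.08 ± 2.98), while every neighbouring pair overlapped. After agonist the leading genes were the same in neuronal nuclei, Elavl4 with 61.2 ± 17.9 and Celf4 with 48.8 ± 20.7 CPM per kb, but there their ranges overlapped, as did those of Celf4 and Rbfox1. Rbfox2 again led in non-neuronal nuclei with 8.52 ± 1.49. With the longest transcript or the mean coding transcript as the length, 42 and 44 of the 45 pairs of genes kept their order in corn oil neuronal nuclei.

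**Figure D3:**
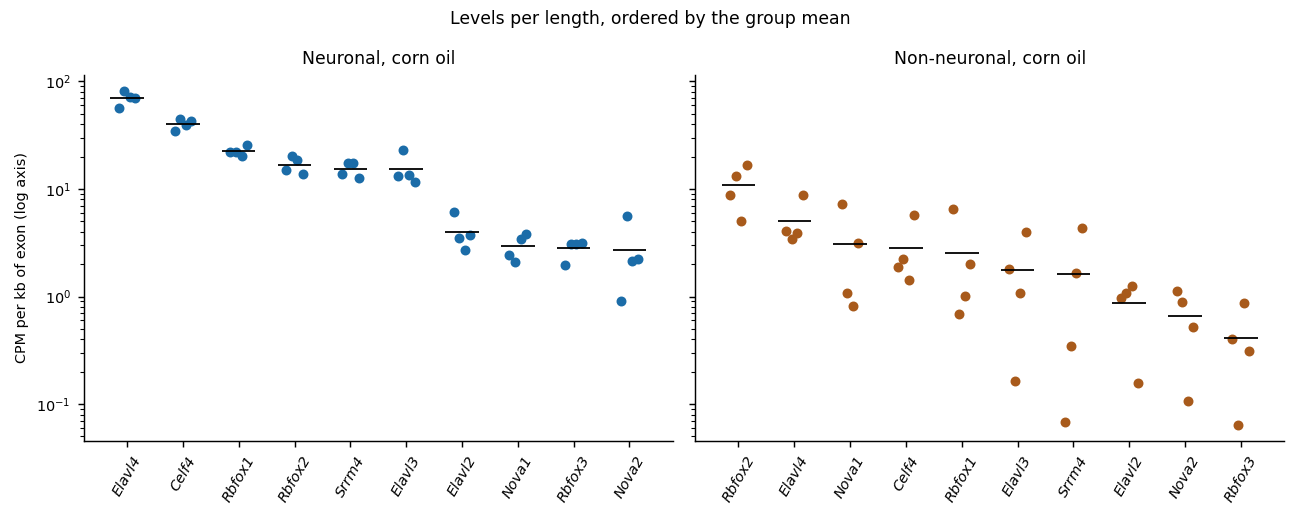
Levels in CPM per kb of exon on a log axis, ordered by the group mean, in neuronal (left) and non-neuronal (right) nuclei of corn oil mice. Points are the 4 libraries and bars their means. Elavl4 and Celf4 stand above the rest on the left; Rbfox2 leads on the right, where the libraries of most genes spread more widely.

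Each gene's share in the summed level per kb of its family was compared between the populations in corn oil mice. The shares of Elavl1, Elavl4, Rbfox1, Rbfox2, Celf1, Celf2, Celf3, Celf4, Celf6 and Ptbp2 did not overlap. Those of Elavl2, Elavl3, Rbfox3, Nova1, Nova2, Celf5, Srrm3, Srrm4, Ptbp1 and Ptbp3 did. The shares are described and were not tested. Of the 4 Elavl genes, Elavl4 took 72.8 ± 4.47% (SD, n = 4) in corn oil neuronal nuclei and 30.4 ± 4.96% in non-neuronal ones. Elavl1, the family member of all tissues (HuR), took 7.07 ± 1.50% and 53.1 ± 11.6%. The level of Elavl1 itself gave no call (log2 fold change -0.35, SE 0.40, edgeR adjusted p = 0.584), while Elavl2, Elavl3 and Elavl4 were called higher in the same fit. Of the 3 Rbfox genes, Rbfox1 took 53.5 ± 6.07% in corn oil neuronal nuclei, Rbfox2 39.9 ± 5.95% and Rbfox3 6.65 ± 1.06%. In non-neuronal nuclei Rbfox2 took 77.8 ± 17.3% in corn oil mice and 96.9 ± 2.62% after agonist, where its lowest library was at 93.6%. Of the 2 Nova genes, Nova1 took 56.3 ± 20.2% in corn oil neuronal and 78.8 ± 16.2% in corn oil non-neuronal nuclei. Of the 6 Celf genes, Celf4 was second in neuronal nuclei with 27.5 ± 5.64%, behind its paralogue Celf3 with 53.3 ± 7.61%, and had 7.71 ± 3.14% in non-neuronal nuclei, where Celf1 led with 58.9 ± 7.64%. Srrm4 took 72.7 ± 3.79% of the sum of Srrm3 and Srrm4 in corn oil neuronal nuclei, and its share ran from 7.21% to 100% in non-neuronal nuclei, where both were low. The Ptbp genes, whose products hold back neuronal exons and whose switch from Ptbp1 to Ptbp2 marks developing neurons, were compared in the same way. Ptbp2 took 57.6 ± 2.67% and Ptbp1 13.2 ± 3.35% in corn oil neuronal nuclei, against 40.1 ± 9.08% and 27.9 ± 14.1% in non-neuronal ones. The level of Ptbp1 itself gave no call (log2 fold change -0.55, SE 0.40, edgeR adjusted p = 0.361). After agonist the shares of Ptbp2 overlapped, at 34.7% to 71.3% in neuronal and 13.6% to 54.1% in non-neuronal nuclei. Its level was not called there (0.80, SE 0.48, edgeR adjusted p = 0.329).

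**Figure D4:**
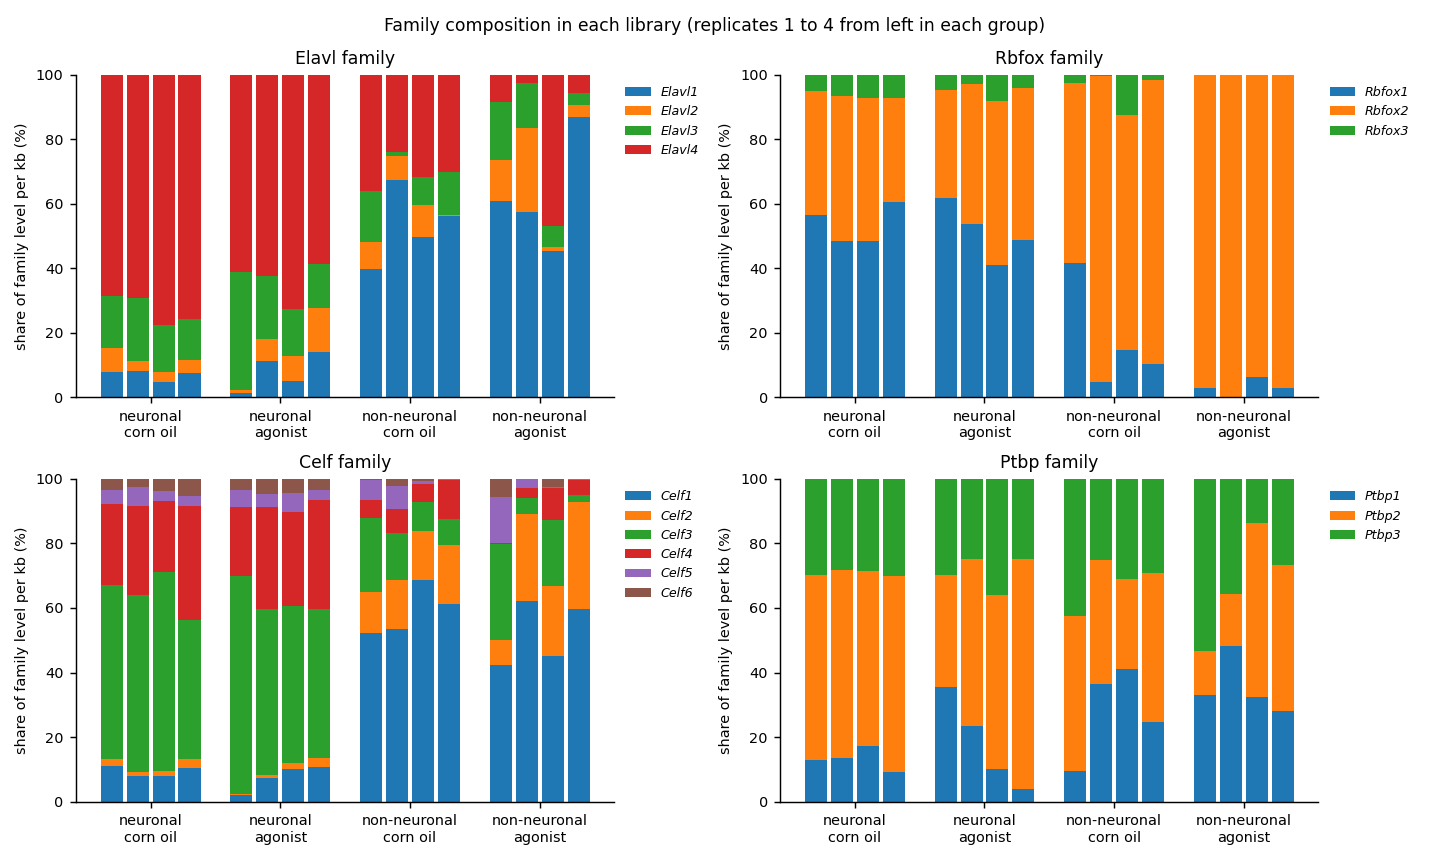
Share of each gene in the summed level per kb of its family (%), 1 bar for each library, for the Elavl, Rbfox, Celf and Ptbp families. Elavl4 takes at least 58.7% of the Elavl sum in all 8 neuronal libraries and at most 46.8% in all 8 non-neuronal ones; Rbfox2 takes at least 93.6% of the Rbfox sum in the non-neuronal agonist libraries.

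Lists of 4 other groups of RNA-binding genes were read in the same fits, by their counts and medians. Over all genes tested, 11.8% were called higher and 13.5% lower in corn oil mice, and 6.67% and 6.97% after agonist. Of 9 paralogues of the 10 factors, 4 were higher in neuronal nuclei of corn oil mice and none lower, with a median log2 fold change of 0.31 beside -0.11 over all genes. These were Celf3 (log2 fold change 4.24, SE 0.39, edgeR adjusted p = 1.15e-05), Celf6 (4.62, SE 0.84, adjusted p = 0.00128), Srrm3 (3.99, SE 0.85, adjusted p = 0.00343) and Celf5 (2.58, SE 0.84, adjusted p = 0.0377). The call of Celf5 was lost in 4 of the 8 fits that left out 1 library. Celf3, Celf5 and Celf6 are Celf genes of the nervous system, and Srrm3 is the relative of Srrm4 that also promotes microexons. Of 26 other regulators of alternative splicing, 22 were tested, 3 were higher and 7 lower, with a median of -0.07, and the share higher was near that of all genes. Higher were Khdrbs2 (3.26, SE 0.43, edgeR adjusted p = 0.000146), a neuronal splicing factor of the STAR family, Tia1 (1.20) and Ptbp2 (1.05). Among the lower ones were the epithelial splicing regulators Esrp1 (-5.74, SE 0.98, edgeR adjusted p = 0.000827) and Esrp2 (-5.07), the smooth muscle factor Rbpms (-3.83) and Qk (-2.0), which glia and muscle express. Epithelial markers (10 genes) were at between 1672 CPM and 11298 CPM in the same non-neuronal libraries and between 46.6 and 152 in the neuronal ones, and their part in the Esrp values was not tested. Rest, the repressor whose site was searched above, was lower in neuronal nuclei of corn oil mice (log2 fold change -1.80, SE 0.54, edgeR adjusted p = 0.0256) but not after agonist (-0.24, SE 0.79, adjusted p = 0.903). The test of the difference between these contrasts gave 1.68 (SE 0.94, edgeR adjusted p = 0.687). Rest was not among the genes chosen by rule and was added after its values were seen.

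Of 27 factors of neuronal mRNA transport and translation, 26 were tested, 7 were higher and 1 lower in corn oil mice, with a median log2 fold change of 0.13, beside 11.8% higher and 13.5% lower of all genes tested. Cpeb1 (4.19, SE 0.37, edgeR adjusted p = 9.77e-06), which controls polyadenylation in dendrites and oocytes, Msi1 (3.88), Rbms3 (2.0) and Msi2 (1.84) had the smallest p-values among those higher, and Zcchc24 (-4.58) was the 1 lower. Of 36 core spliceosome, SR and hnRNP genes, 35 were tested and their median was -0.24. Only Snrpn, an imprinted gene of neurons, was called higher among them (2.75, SE 0.51, edgeR adjusted p = 0.00140), and Srsf10 (-0.83) and Hnrnpa1 (-0.91) were lower. The call of Hnrnpa1 (edgeR adjusted p = 0.0482) was lost in 7 of the 8 fits that left out 1 library, and that of Srsf10 in 1. After agonist the counts higher and lower were 2 and 0 of 9 paralogues, 2 and 3 of 19 other splicing regulators, 6 and 1 of 26 transport factors, and 1 and 0 of 36 core genes, with medians of 0.59, -0.07, 0.36 and -0.26 beside -0.15 over all genes, of which 6.67% were called higher and 6.97% lower. The calls after agonist included Celf3 (4.65), Srrm3 (5.68), Khdrbs2 (3.36), Cpeb1 (3.37) and Snrpn (3.95) as in corn oil mice. Among the genes called in corn oil mice, Celf5 (edgeR adjusted p = 0.101), Celf6 (0.102), Ptbp2 (0.329), Srsf10 (0.303) and Hnrnpa1 (0.287) were not called after agonist. Esrp1 and Esrp2 were not tested there. The 10 factors had the highest median of the 5 lists under both treatments, and they were chosen as neuronal genes.

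**Figure D5:**
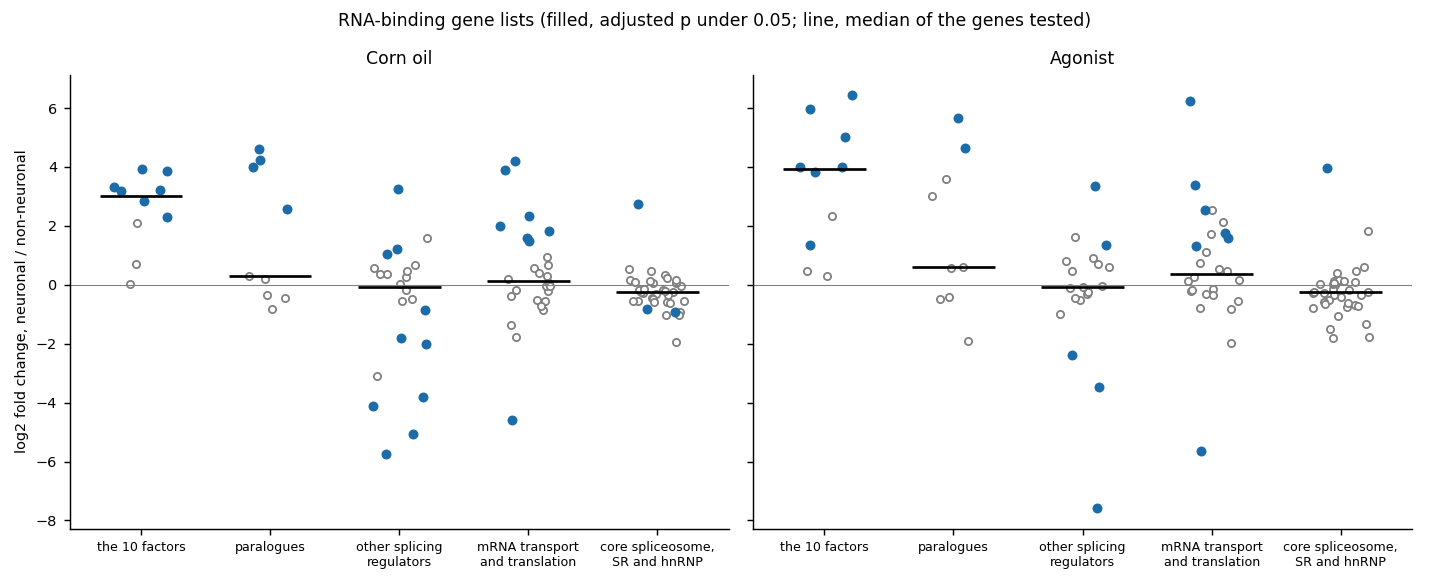
Log2 fold change, neuronal against non-neuronal nuclei, of each gene tested in the list of 10 factors and in 4 lists of other RNA-binding genes, in corn oil mice (left) and after agonist (right). Filled points passed an adjusted p of 0.05 and bars are list medians; Rbfox3 after agonist is drawn at its lower bound, and the lowest point on the right, Rbpms2, rests on 1 count over the 4 neuronal libraries. The median of the 10 factors is 3.02 on the left, against medians between -0.24 and 0.31 for the other lists.

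The second question of the design was whether the agonist changed these genes. In neuronal nuclei none of the 10 was called by edgeR, where 0% of all 14182 genes tested were called. At an unadjusted p under 0.05 there were 711 genes, where chance alone gives about 1 in 20 of the genes tested. DESeq2 called 9 genes. The median log2 fold change of the 10 was 0.28, beside 0.08 over all genes, and their values ran from -0.35 (Nova2) to 0.62 (Srrm4). Srrm4 had the smallest p of the 10: its agonist libraries, at 244, 200.1, 243 and 138 CPM, were mostly above its corn oil libraries, at 121, 153, 152 and 110.3, and only the fourth agonist library lay within the corn oil range. Its log2 fold change was 0.62 (SE 0.24, edgeR unadjusted p = 0.0241, adjusted p = 0.903). The next were Elavl2 with 0.60 (SE 0.50, edgeR adjusted p = 0.923), Elavl3 with 0.54 (SE 0.46, adjusted p = 0.923) and Rbfox2 with 0.37 (SE 0.23, adjusted p = 0.903). Without the first agonist library the values of Elavl3 (-0.22), Rbfox1 (-0.0189) and Celf4 (-0.0564) turned negative and that of Nova1 (0.11) positive, so the sign for these 4 genes rests on that library. Elavl4 had -0.19 (SE 0.23, adjusted p = 0.955) and Rbfox3 -0.19 (SE 0.49, adjusted p = 0.979). For no factor were the agonist and corn oil libraries apart, as they were for 3.64% of all genes tested. The promoter of Srrm4 with its 2 GCGTG motifs is printed above, and whether the motif bears on these values was not tested.

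In non-neuronal nuclei 9 of the 10 were tested and none was called by edgeR, where 0.0135% of all 14846 genes tested were called, 2 genes. At an unadjusted p under 0.05 there were 715 genes, where chance alone gives about 1 in 20 of those tested. The median log2 fold change of the 9 was -0.32, beside 0.13 over all genes. Rbfox1 had the lowest value: corn oil libraries had 28.7, 3.00, 4.49 and 8.80 CPM and agonist libraries 1.13, 0, 3.14 and 0.926 CPM, so that only the highest agonist library reached the lowest corn oil one. The log2 fold change of Rbfox1 was -3.01 (SE 1.38, edgeR unadjusted p = 0.0454, adjusted p = 0.954), and -1.98 without the first corn oil library. Rbfox3 did not pass the filter on low counts. Its 33 counts over the 4 corn oil libraries (8, 1, 17 and 7) and 0 in the 4 agonist libraries put the groups apart; of the 14846 genes tested, which do not include Rbfox3, 2.17% were apart in that direction. The neuron markers summed to between 231 and 1007 CPM in the corn oil and between 116 and 551 CPM in the agonist non-neuronal libraries, and their part in the values of Rbfox1 and Rbfox3 was not tested. Nova2 had the highest value, 1.21 (SE 1.21, edgeR adjusted p = 0.981), and the other 7 lay between -0.91 (Celf4) and 0.50 (Elavl2). The SE of these 9 values was between 0.50 and 1.38, against 0.23 to 0.89 for the 10 values in neuronal nuclei.

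The difference of the agonist response between the populations was fitted over all 16 libraries. None of the 10 factors was called by edgeR, where 0% of all 18566 genes tested were called. There were 1484 genes at an unadjusted p under 0.05, and DESeq2 called 103 genes. Of the 10 values, 9 were above 0, that is, the fitted response was more positive in neuronal nuclei, and Nova2 was below (-1.52, SE 1.32, edgeR adjusted p = 0.836). The median of the 10 was 0.76, beside 0.04 over all genes. The share of all genes above 0 is not given here, and the 10 values share the same 16 libraries. With 1 library left out, the sign turned in 6 of 16 fits for Elavl2 (0.17), 3 for Nova1 (0.35) and 1 for Srrm4 (0.78). The largest fitted values were those of Rbfox3 (5.96, SE 1.66, edgeR adjusted p = 0.413), which depends on a group with no counts, and Rbfox1 (3.30, SE 0.97, adjusted p = 0.413). Rbfox1 passed when no filter on low counts was used (adjusted p = 0.0383, in a range of 0.0383 to 0.993 over all alternatives). Elavl4 had a difference of 0.027 (SE 1.19), whose sign was not stable: it was negative in 10 of the 16 fits that left out 1 library, down to -0.49, and -0.93 without both libraries over 30% mitochondrial. Without the third non-neuronal agonist library it was 3.08 and passed (edgeR adjusted p = 0.0379, in a range of 0.0379 to 1 over all alternatives).

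The factors followed one another across the 16 libraries to different degrees, which share the contrast of the populations. The correlation of the log2 CPM of each factor with the mean of the other 9 was 0.95 for Celf4, 0.93 for Elavl4, 0.92 for Rbfox1, 0.89 for Elavl3, 0.88 for Rbfox3, 0.82 for Rbfox2, 0.76 for Srrm4 and 0.65 for Elavl2 (Pearson's r, n = 16 libraries). It was 0.48 for Nova2 and 0.02 for Nova1. Within the 8 neuronal libraries alone these values lay between -0.54 (Nova1) and 0.31 (Nova2). Of the 10990 other genes compared, those whose log2 CPM was most like the mean of the 10 over the 16 libraries included Nalcn (r = 0.986), a sodium leak channel, Evi5 (0.983), which encodes a GTPase-activating protein, Rian (0.981), an imprinted noncoding RNA, and Disp2 (0.978). Nalcn was at 111 ± 7.42 CPM (SD, n = 4) in corn oil neuronal and 5.80 ± 4.20 CPM in corn oil non-neuronal nuclei. Within the 8 neuronal libraries the correlation with the mean of the 10 was 0.55 for Nalcn, 0.43 for Evi5, 0.12 for Disp2 and 0.09 for Rian.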

How the data were processed

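Nuclear RNA was read as 75 bp single-end reads, per the labels' protocols. The authors' deposited table holds RSEM expected counts, unscaled, for 51912 genes in 16 libraries. Per the submitters' processing notes, RSEM 1.3.0, STAR 2.5.2, DESeq2 1.10.1 and GRCm38 were used. Neither an annotation release nor a strand setting was given in the sources used here. RSEM divides reads that fit several genes, so shared sequence makes a count uncertain. The column headers carry a project name on wild-type and AhR knockout mice, which was not explained there; groups were taken from the labels.

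Expected counts were rounded. Symbols, found for 51633 genes, and exon lengths came from GENCODE M21, and promoters from RefSeq. Each of the 5 comparisons was fitted over all genes in edgeR 4.0.16 (R 4.3.3) with TMM scaling, filterByExpr (minimum count 10, minimum total 15) and robust two-sided quasi-likelihood F-tests, with Benjamini-Hochberg adjustment over all genes tested and a threshold of 0.05. The SE is the log2 fold change divided by the square root of F. Log2 CPM used a prior count of 2. The alternatives were library-size scaling, DESeq2 1.42.0, limma-voom (limma 3.58.1), no filter, all 4 groups in 1 fit, a replicate block, each library left out, libraries over 30% mitochondrial left out and mitochondrial genes left out. The fits were tested on counts simulated with known changes. Of changes by a log2 fold of 2, they called 30.4% between populations in corn oil mice and 3.16% after agonist. They called 32.6% for the neuronal response, 8.89% for the non-neuronal response and 2% for the difference. At a log2 fold of 4 the 5 shares were 89.4%, 41.7%, 85.6%, 56.1% and 21%. In the corn oil simulation, 92 and 85 genes with these changes were tested, while the real corn oil fit called 3876 genes. The adjusted p depends on how many genes change, so these shares need not hold for the real fits between populations. A gene that was not called may still have changed. False calls were at most 7.14% of calls in the simulations.

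All 10 genes are named in every comparison, with up to 4 called genes per direction of each other list by adjusted p, and 5 genes by likeness (mean CPM of at least 10), 1 of which is not reported here. The members and lists were chosen with earlier results of these data known. No replicate pair agreed within sampling noise (smallest chi-square per degree of freedom 8.78). Library totals of 2663818 to 4902344 counts limit the precision of low genes. Protein features were not analysed here.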

Additional observations from a re-analysis of the deposited data

Results flagged for a closer look

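In 4 of 40 sets of 4 libraries (10 genes in 4 groups), 1 library lay farther from the others than Dixon's 95% limit for the gap over the range. The set of Rbfox3 in non-neuronal agonist libraries, all without a count, had no range and could not be flagged. Chance flags about 1 in 20 such sets of normally distributed values, and CPM near 0 may not follow that distribution. Elavl4 was at 85.8 CPM in the third non-neuronal agonist library, where the next highest of the group was 3.24. The same gene was at 47.9 CPM in the fourth non-neuronal corn oil library, with the next at 21.9. These 2 libraries had the largest neuron marker sums of their groups, 682 and 1010 CPM on the TMM scale, and the part of this in the Elavl4 values was not tested. Elavl2 stood at 26.2 CPM in the second non-neuronal agonist library, with the next at 6.05; mitochondrially encoded genes took 33.3% of that library's counts. Rbfox3 was lowest in the first neuronal corn oil library, at 11.5 CPM, with the next lowest at 17.9.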

How the results depend on the processing

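Among the factors, 7 were called in corn oil mice, between 7 and 8 when 1 library was left out, 8 by DESeq2 and 5 with all 4 groups in 1 fit, which lost Elavl2 and Rbfox3. After agonist 7 were called, between 5 and 7 with 1 library left out, 6 without a filter, with the replicate block or without libraries over 30% mitochondrial, and 8 by DESeq2, with library-size scaling or with all groups in 1 fit. In the neuronal response no factor was called in any alternative. The cause of the changes below was not tested. Genes called between populations after agonist numbered 1918, and 2937 by DESeq2, 3324 without a filter and 4590 with all 4 groups in 1 fit. For the neuronal response the count was 0, but 9 by DESeq2 and 152 without a filter. For the non-neuronal response it was 2, and 0 with library-size scaling or limma-voom, 35 by DESeq2, 88 without a filter, 11 with all groups, 1 without libraries over 30% mitochondrial, and 0 to 2 with 1 library left out. For the difference it was 0, and 103 by DESeq2, 110 without a filter, 7 without those libraries and 0 to 9 with 1 library left out, when 0 to 1 factors were called; without a filter 1 was (Rbfox1). The summed level of the 10 per kb, 193.1 CPM, was 288.6 by the longest and 479.1 by the mean coding transcript. Scaling by library size moved the split of higher and lower calls from 1811 and 2065 to 2084 and 1679 in corn oil mice, and from 938 and 980 to 1332 and 649 after agonist; the median over all genes moved from -0.11 to 0.11 and from -0.15 to 0.43.

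Signs changed only for values that were not called. Between populations, Nova1 was -0.0589 in corn oil mice with all groups in 1 fit, and after agonist -0.85 by limma-voom, -0.23 with the replicate block and -0.26 without libraries over 30% mitochondrial. In the non-neuronal response, Elavl2 was -0.0655 with library-size scaling and -1.04 without those libraries, Elavl4 0.69 and Nova1 0.0082 without them, Elavl3 0.11 with the replicate block, and Srrm4 0.30 by limma-voom. In the difference, Elavl4 was -0.93 and Nova1 -0.30 without those libraries, and Nova1 -1.15 by limma-voom. With 1 library left out, Nova1 ran from -0.26 to 0.90 in corn oil mice and from -0.17 to 1.11 after agonist, and Nova2 from -0.0132 to 1.01 after agonist. In the neuronal response the ranges were -0.0564 to 0.42 (Celf4), -0.22 to 0.81 (Elavl3), -0.79 to 0.11 (Nova1), -0.85 to 0.28 (Nova2) and -0.0189 to 0.48 (Rbfox1). In the non-neuronal response they were -0.69 to 0.79 (Elavl2), -0.73 to 0.46 (Elavl3), -3.37 to 0.22 (Elavl4), -1.39 to 0.27 (Nova1) and -0.99 to 1.13 (Srrm4). In the difference they were -0.20 to 1.26 (Elavl2), -0.49 to 3.08 (Elavl4), -0.52 to 1.15 (Nova1) and -0.54 to 1.61 (Srrm4).

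The labels do not say what a replicate number marks. Same-numbered libraries of the groups compared had correlations of their deviations between -0.10 and 0.18. The 1 of 16 pairs over 0.1 was an agonist and a corn oil library. Only neuronal and non-neuronal libraries of the same treatment could share mice, and there the correlations were between -0.0096 and 0.074. The numbers were not taken to pair samples, but such low values do not show that the populations came from different mice. With the number as a replicate block, 3731 genes and 7 factors were called in corn oil mice and 1941 genes and 6 factors after agonist, where Rbfox2 had an adjusted p of 0.0899; the 2 responses and the difference gave 0, 2 and 0 genes. The planned comparison of proteins was not run. Counts of a few reads, as for Rbfox1 and Rbfox3 in non-neuronal nuclei, limit what these depths can show.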
